A study of Homo sapiens with 4 samples.

Results

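NF-κB is a family of dimeric transcription factors that drive inflammatory and survival genes. In resting cells the Rel subunits are held in the cytoplasm by IκB proteins, and signals from cytokine and pattern recognition receptors lead to destruction of IκB and release of the dimer, with a slower noncanonical branch that processes the NFKB2 precursor and acts with RELB. Several genes of the system are themselves NF-κB targets, among them the inhibitor NFKBIA and TNFAIP3 (A20), which shut the signal down, so that their transcripts are commonly followed as a readout of the pathway.

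The 10 genes described here are the 5 Rel subunit genes (NFKB1, NFKB2, RELA, RELB and REL), 3 genes of IκB inhibitors (NFKBIA, NFKBIB and NFKBIE) and 2 feedback genes (TNFAIP3 and BIRC3). They were chosen by symbol, with earlier results of these data known. They account for 23 of the 44578 transcripts and 10 of the 23217 gene symbols in the deposited table. All were measured in LV-M100, a clonal subpopulation of the triple-negative breast cancer line MDA-MB-231 with low variability between cells, so that the results concern 1 clone of 1 cell line. The cells were transfected with siRNA using Lipofectamine 2000 and total RNA was collected 48 h later, cleared of ribosomal RNA and sequenced. In the siControl condition 1 library received the negative control siRNA NC1 and the other the BLOCK-iT Fluorescent Oligo. In the siSNRNP40 condition each of the 2 libraries received a different siRNA against SNRNP40, a spliceosomal protein that belongs to the U5 particle. The siRNA strands given for them in the sample labels, shown because they define the treatment, were:

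siSNRNP40 #1: ggaauagacaaugauauc

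siSNRNP40 #2: ggauuugaccgacugaua

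The authors pooled the 2 libraries of a condition into 1 FPKM value per transcript (fragments relative to the length of the transcript and to the mapped total, so that genes can be compared per length). No value here therefore carries a replicate error, the differences were not tested, and the depth of the libraries is unknown. FPKM of all transcripts of a gene were summed, and changes are given as log2 of siSNRNP40 over siControl, without a pseudocount. A gene was counted when its mean over the 2 conditions was at least 1 FPKM and both values were above 0, which held for 12334 genes, including all 10 NF-κB genes. SNRNP40 itself was listed at 40.4 FPKM with control siRNA and 6.12 FPKM with siSNRNP40, 84.9% less. Of 5 genes typical of MDA-MB-231, VIM was listed at 733 to 750.1 FPKM and CD44, EGFR, AXL and KRT18 at 18.3 to 158 FPKM. ESR1, PGR and CDH1, which this line lacks, were at 0.098 FPKM or less, whereas ERBB2 (6.56 and 7.42 FPKM) and EPCAM (10.6 and 10.0 FPKM), set down as low markers, were present. PTPRC and ALB, markers of leukocytes and liver, were listed at 0. In bulk RNA, a change in the share of cells that express a gene and a change in RNA per cell cannot be told apart.

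A feature found for 7 of the 10 genes lies in their promoters. In the RefSeq windows of 300 bases around gene starts (250 bases before and 50 after, GRCh38.p14), 8 of the 10 genes were present, with 13 starts in all. RELB and NFKBIE had no window there and so were not searched. Both strands were searched for the κB consensus, the 10-base motif bound by Rel dimers. It was found at 1 or more starts of 7 of the 8 genes and in 8 of their 13 windows, compared with 5.91% of all 35116 windows and 7.09% of all 27305 genes. Among 8440 genes that passed the expression filter and had a window, the share was 8.86%. RELA had no match in its 2 windows. Of the pathway lists described further on, the κB consensus was found for 3 of 4 genes with a window among the other IκB proteins and partners. It was found for 11 of 22 textbook targets, 3 of 9 ligands, 4 of 22 interferon-stimulated genes and 3 of 19 adaptors and upstream kinases. The remaining lists had it for 2 of 15 ubiquitin ligases and deubiquitinases, 1 of 11 receptors and 0 of 6 IKK kinases, related kinases and scaffolds. One stretch per gene is shown to let the sites be compared, 5′ to 3′ on the strand of the gene, with matches in capitals and overlapping matches run together:

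NFKB1: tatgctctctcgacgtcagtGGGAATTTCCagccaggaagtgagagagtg

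NFKB2: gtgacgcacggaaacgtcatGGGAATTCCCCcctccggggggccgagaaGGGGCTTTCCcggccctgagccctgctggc

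REL: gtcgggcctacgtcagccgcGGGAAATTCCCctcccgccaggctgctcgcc

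NFKBIA: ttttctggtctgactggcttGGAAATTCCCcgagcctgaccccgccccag

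NFKBIB: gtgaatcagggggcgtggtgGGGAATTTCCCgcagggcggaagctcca

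TNFAIP3: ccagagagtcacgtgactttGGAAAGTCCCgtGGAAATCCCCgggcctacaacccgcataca

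BIRC3: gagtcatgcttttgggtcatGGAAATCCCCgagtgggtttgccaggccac

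These stretches lie at chr4:102501290-102501339 (NFKB1, plus strand), chr10:102394451-102394529 (NFKB2, plus strand), chr2:60881507-60881557 (REL, plus strand), chr14:35404801-35404850 (NFKBIA, minus strand), chr19:38899921-38899968 (NFKBIB, plus strand), chr6:137867172-137867233 (TNFAIP3, plus strand) and chr11:102317265-102317314 (BIRC3, plus strand) of GRCh38.p14, each upstream of a listed start. The NFKB1 and NFKBIB sites belong to 1 of 2 listed starts, and NFKB2 had matches at 2 of its 3 starts. TNFAIP3 carried 2 sites separated by only a pair of bases, and BIRC3 held another match nearer to its start, within the stretch chr11:102317329-102317378, which is not printed. A match describes the letters of the window and was not read as a bound site. Which of several starts was used in these cells was not measured.

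All 10 NF-κB genes were listed at a higher level in the siSNRNP40 condition than in siControl, whereas 50.5% of the 12334 genes were higher. Because the 10 genes were chosen with earlier results of these data known, such counts are not independent evidence of a direction. The log2 differences ranged from 0.04 for RELA to 0.88 for TNFAIP3. Their median was 0.51, beside a median of 0.00 over all genes, whose lower and upper quartiles were -0.17 and 0.17. Above a log2 difference of 0.5 were 5 of the 10 (TNFAIP3, NFKBIB, NFKB2, RELB and NFKBIE), against 5.24% of all genes, and none was below -0.5, against 5.06%. None of the 10 passed the limit of 1 that the study uses for SNRNP40-dependent transcripts, a limit passed upward by 0.811% and downward by 0.657% of all genes, when applied to sums per gene. Of the 14 single transcripts of these genes with a mean of at least 1 FPKM, 1 passed the limit upward, TCONS_00005015 of NFKB2 (2.51), against 5.5% of all such transcripts, and none downward, against 5.04%. Another 4 transcripts of these genes passed it upward at a mean under 1 FPKM, among them TCONS_00008103 of RELA at 0.0002 and 0.0006 FPKM. The share of all transcripts at that level was not counted, so this number is not read as a result. Low genes spread more widely in this table, so the counts are also given by level. Of the 8 NF-κB genes with a mean of at least 5 FPKM, 4 were above 0.5, against 2.44% of genes at that level. Of the 2 below 5 FPKM, TNFAIP3 was above 0.5 and REL was not, against 11.6% of genes there.

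**Figure D1:**
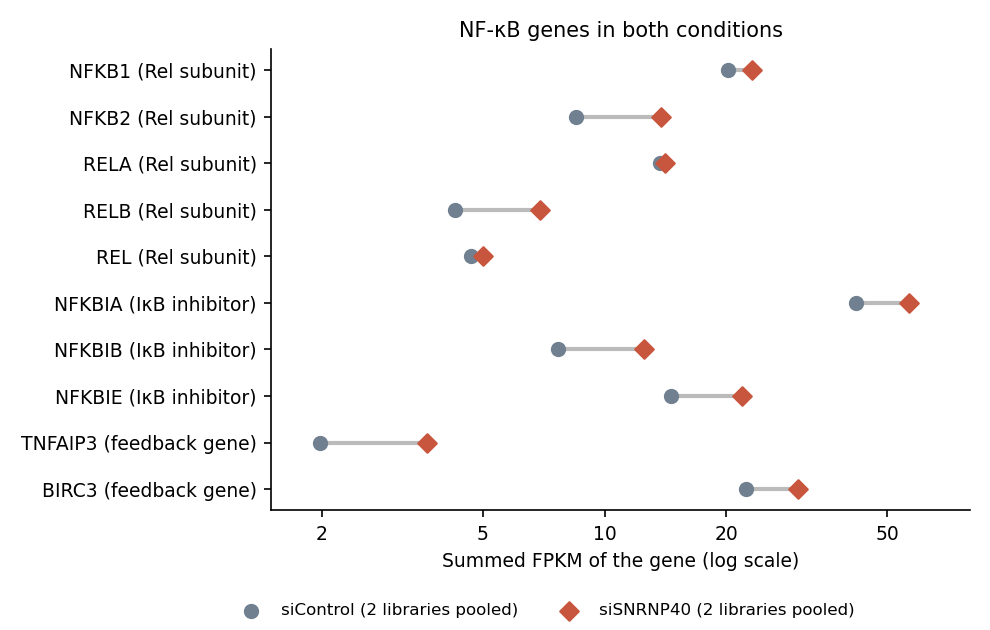
Summed FPKM of the 10 NF-κB genes on a log axis, with the siControl value as a circle and the siSNRNP40 value as a diamond, each from 2 pooled libraries and without an error. Every diamond lies to the right of its circle, with the widest gap for TNFAIP3 (1.98 and 3.64 FPKM) and the narrowest for RELA (13.7 and 14.1 FPKM).

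**Figure D2:**
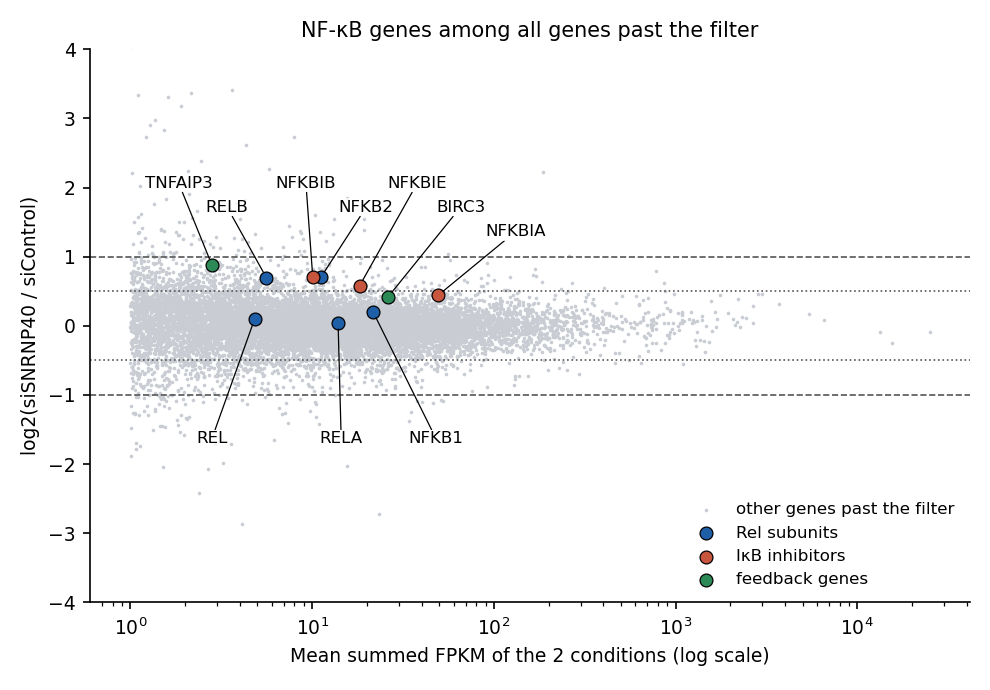
log2 of siSNRNP40 over siControl against the mean FPKM of the conditions for the 12334 genes past the filter, with the 10 NF-κB genes marked by role, dotted lines at 0.5 and -0.5 and dashed lines at 1 and -1. The NF-κB genes lie between 0.04 and 0.88, and 2 genes lie outside the vertical axis.

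The 5 Rel subunit genes did not move alike. NFKB2, which encodes the p100 precursor of p52 and belongs to the noncanonical branch, was listed at 8.51 FPKM with control siRNA and 13.8 FPKM with siSNRNP40, a log2 difference of 0.70. RELB, the usual partner of p52, was listed at 4.27 and 6.93 FPKM, also 0.70. Both log2 differences were above those of 97.6% of the genes past the filter.

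The subunits of the canonical dimers stood closer to their control values. NFKB1, which encodes the p105 precursor of p50, was listed at 20.2 and 23.2 FPKM (log2 0.20). RELA (p65), the main transactivating subunit, was listed at 13.7 and 14.1 FPKM (0.04), close to the middle of all genes at percentile 56.8. REL, best known in lymphoid cells, was listed at 4.66 and 4.99 FPKM (0.10). On the log2 scale the sum of NFKB2 thus exceeded that of NFKB1 by 0.50 and RELB exceeded RELA by 0.65, without an error for either difference. By the most expressed transcript of each gene the first contrast turned to -0.75, and the second was 0.44. Summed over the 5 subunit genes the level was 51.3 FPKM in siControl and 63.0 FPKM in siSNRNP40.

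The IκB genes made up the larger pool of transcripts. NFKBIA (IκBα), the inhibitor that is resynthesised after each round of activation, was the most abundant of the 10 genes at 41.8 FPKM in siControl and 56.7 FPKM in siSNRNP40, a log2 difference of 0.44. NFKBIB (IκBβ), a slower inhibitor, was listed at 7.69 and 12.5 FPKM (0.70), and NFKBIE (IκBε), which is also induced by NF-κB, at 14.6 and 21.8 FPKM (0.58). All 3 were higher in siSNRNP40, and 2 of the 3 were above 0.5.

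Together the inhibitor genes were listed at 64.1 FPKM in siControl and 91.0 FPKM in siSNRNP40, a log2 difference of 0.50 compared with 0.30 for the sum of the Rel subunits. The ratio of summed IκB to summed Rel FPKM was 1.25 in siControl and 1.44 in siSNRNP40, and that of NFKBIA to RELA was 3.06 and 4.02. These ratios compare transcripts per length, and no protein was measured.

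Of the feedback genes, TNFAIP3, a ubiquitin-editing enzyme that ends signalling from the TNF receptor and Toll-like receptors, was the lowest of the 10 genes in level and the first in log2 difference, at 1.98 FPKM in siControl and 3.64 FPKM in siSNRNP40 (0.88, above 98.8% of genes). With 1 FPKM added to both values the difference was 0.64. BIRC3 (cIAP2), a ubiquitin ligase of the TNF receptor complex, was the second most abundant of the 10, at 22.4 and 30.0 FPKM (0.42). Its neighbour and paralogue BIRC2 (cIAP1) went the other way, with 58.8 FPKM in siControl and 38.6 FPKM in siSNRNP40 (-0.61), and the log2 differences of the pair were 1.03 apart. Reads common to both paralogues could have been divided between them by the authors' counting.

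The order of levels was nearly the same in both conditions. In siControl it ran from NFKBIA through BIRC3, NFKB1, NFKBIE, RELA, NFKB2, NFKBIB, REL and RELB to TNFAIP3, a span of 21.1-fold. In siSNRNP40 REL and RELB had changed places and the span was 15.6-fold. Without values per library, neighbours in this order could not be set against their spread. RELA (14.1 FPKM) and NFKB2 (13.8 FPKM) were nearly level in siSNRNP40, as were NFKB1 (23.2 FPKM) and NFKBIE (21.8 FPKM).

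The sums hide differences between transcripts of a gene, which the table lists under assembly identifiers without exon structures, so that they could not be tied to known isoforms. Cuffdiff divides fragments among overlapping transcripts by a model, and a transcript's value depends on that division. Of the 10 genes, 5 had 1 transcript each (RELB, REL, NFKBIA, NFKBIE and TNFAIP3), and BIRC3 had a second that was listed at 0 in both conditions. NFKB2 showed the widest redistribution. Its transcript TCONS_00005015 was listed at 1.04 FPKM in siControl and 5.90 FPKM in siSNRNP40, passing from 12.2% to 42.7% of the gene's FPKM. TCONS_00005016, the main NFKB2 transcript in siControl, was listed at 6.42 and 5.96 FPKM and went from 75.5% to 43.1%. TCONS_00005013 kept close to its share, with 10.2% and 10.3%. The gene's difference of 5.31 FPKM was thus mostly that of 1 transcript (4.86 FPKM), and the most expressed transcript alone gave a log2 difference of -0.11 in place of 0.70.

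NFKB1 had 2 transcripts that moved in opposite directions. TCONS_00029851 was listed at 11.7 FPKM in siControl and 18.1 FPKM in siSNRNP40 (log2 0.64), and TCONS_00029850 at 8.53 and 5.06 FPKM (-0.75). The first held 57.8% of NFKB1 FPKM in siControl and 78.2% in siSNRNP40. By its most expressed transcript NFKB1 would pass the limit of 0.5, and by its sum it did not.

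RELA, nearly level as a sum, also combined transcripts of opposite direction. TCONS_00008107 was listed at 9.42 and 11.3 FPKM (0.26) and TCONS_00008106 at 3.95 and 2.20 FPKM (-0.84), and their shares went from 68.8% to 79.8% and from 28.8% to 15.6%. For NFKBIB a single transcript, TCONS_00019700, carried 96.1% of the gene in siControl and 94.6% in siSNRNP40, at 7.38 and 11.8 FPKM.

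**Figure D3:**
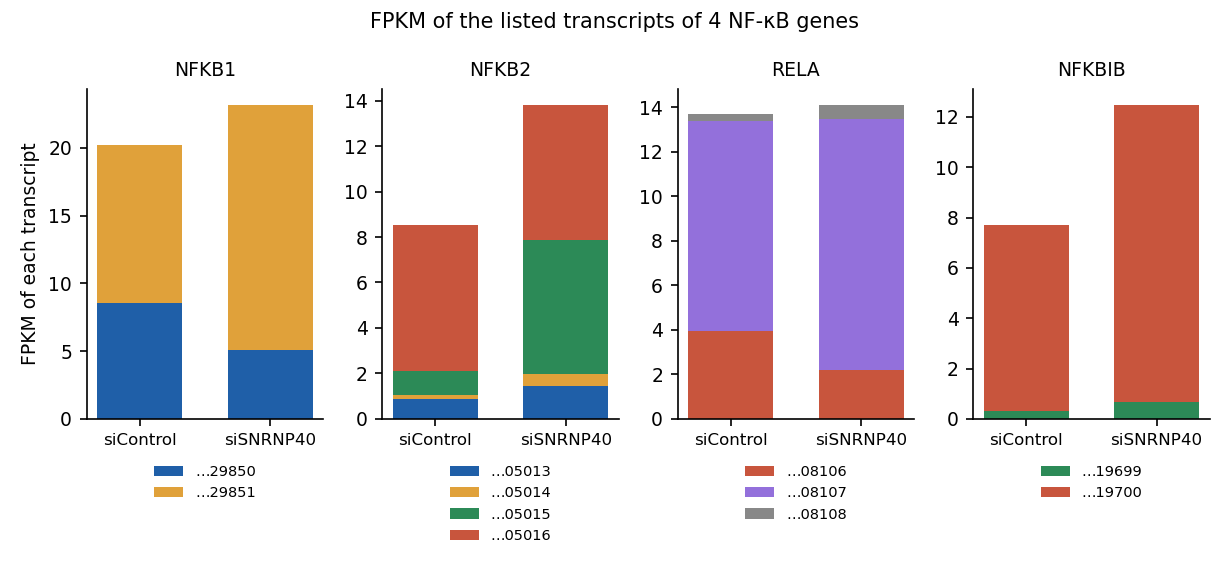
Stacked FPKM of the listed transcripts of NFKB1, NFKB2, RELA and NFKBIB in each condition, labelled by the last digits of their identifiers, with transcripts under 0.1 FPKM in both conditions left out and a separate vertical axis for each gene. In NFKB2 the segment of TCONS_00005015 grew from 1.04 to 5.90 FPKM while that of TCONS_00005016 stayed near 6 FPKM (6.42 and 5.96).

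The genes lie on 7 chromosomes and differ in length and in number of exons. In GENCODE on GRCh37 (the coordinates of hg19), NFKB1 lies at chr4:103422487-103538459 and spans 115973 bases with 24 exons in its canonical transcript, whereas NFKB2 at chr10:104153867-104162281 spans 8415 bases with 23 exons. RELA is at chr11:65421070-65430561 (11 exons), RELB at chr19:45504719-45541450 (12 exons) and REL at chr2:61108626-61158747 (10 exons). The inhibitors NFKBIA at chr14:35870285-35873955, NFKBIB at chr19:39390340-39399533 and NFKBIE at chr6:44225903-44233525 have 6 exons each. TNFAIP3 at chr6:138188351-138204451 and BIRC3 at chr11:102188215-102210134 have 9 each. The locus listed for REL ends at position 61150178, short of the GENCODE end.

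NFKBIB was the 1 gene of the 10 whose listed locus was shared with another, SIRT2, which lies on the opposite strand and was listed at 14.1 FPKM in siControl and 16.5 FPKM in siSNRNP40 (0.23). No exon base of the canonical NFKBIB transcript lies within the GENCODE span of SIRT2. Without NFKBIB, 4 of 9 genes were above 0.5 and the median was 0.44, an alternative chosen after the data were seen. GENCODE also lists long noncoding RNAs, not in the deposited table, whose spans with introns included hold exon bases of canonical transcripts. These were REL (5702 bases, same strand), BIRC3 (3793 bases, opposite strand) and TNFAIP3 (284 bases, opposite strand). How many of the REL bases lie within its listed locus was not determined. Whether the counting used strand is not given in the sources used here.

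The rest of the pathway was followed in lists by role. For comparison, 50.5% of all genes past the filter were higher in siSNRNP40, 5.24% were above 0.5 and 5.06% below -0.5. Of 4 other IκB proteins and partners, 2 passed the filter, NFKBIZ (IκBζ) at 8.87 and 10.4 FPKM (0.23) and NKRF, a repressor of NF-κB promoters, at 6.55 and 5.27 FPKM (-0.31). BCL3, a nuclear IκB protein that works with p52, did not pass, at 1.36 FPKM in siControl and 0.587 FPKM in siSNRNP40 (-1.21), and was picked out after its values were seen. The 8 IKK kinases, related kinases and scaffolds that passed were 4 higher and 4 lower with a median of 0.00. They ranged no further than AZI2, an adaptor of TBK1, at 27.4 and 23.5 FPKM (-0.22), with TANK nearest to 0 at 48.2 and 49.8 FPKM (0.05).

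Adaptors and upstream kinases had a median of 0.08, with 13 of 21 higher. Only TRAF1, an adaptor of TNF receptor family members and a known NF-κB target, was above 0.5, at 4.75 FPKM in siControl and 12.3 FPKM in siSNRNP40 (1.37), a larger difference than that of any of the 10 NF-κB genes. MYD88, the adaptor of Toll-like and IL-1 receptors, was below -0.5, at 3.78 and 2.59 FPKM (-0.54). Ubiquitin ligases and deubiquitinases had a median of -0.02 with 8 of 18 higher, and BIRC2, given above, was the single gene past 0.5 in either direction.

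Receptors were higher in 10 of 14 cases with a median of 0.15. TNFRSF1B (TNF receptor 2) was listed at 4.64 and 9.32 FPKM (1.01) and FAS, a death receptor, at 2.17 and 4.05 FPKM (0.90). No receptor was below -0.5. Ligands were mostly under the filter, with TNF at 0.018 and 0.047 FPKM. Of the 4 that passed, all were higher. TNFSF14 was listed at 1.41 and 1.82 FPKM (0.37), IL18 at 8.55 and 10.2 FPKM (0.25), and IL1A, the 1 ligand above 0.5, at 0.903 and 1.80 FPKM (0.99). IL1A passed the filter on the mean only through its siSNRNP40 value, so its place among the 4 depends on that value.

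Textbook NF-κB targets outside the 10 genes had a median of 0.59, close to the 0.51 of the 10. Of the 21 that passed the filter, 11 were above 0.5 (5.24% of all genes) and none below -0.5 (5.06% of all genes). Higher in siSNRNP40 were 15 of them, against 50.5% of all genes. The chemokine CXCL1 was listed at 2.09 FPKM in siControl and 13.9 FPKM in siSNRNP40 (2.73) and IL8 (CXCL8) at 5.16 and 15.7 FPKM (1.61). CSF2, a growth factor of myeloid cells, was listed at 3.28 and 7.16 FPKM (1.13) and the adhesion molecule ICAM1 at 5.42 and 11.4 FPKM (1.08). The fifth above 1 was CCL20, at 0.199 and 2.00 FPKM. It passed the filter on the mean only through its siSNRNP40 value, so its place in these counts depends on that value. The 6 lower targets included abundant genes such as PLAU, at 182 and 137 FPKM (-0.40). With a filter of 5 FPKM the median of the targets was 0.32. These targets and the 10 NF-κB genes come from the same pooled libraries, and the list was chosen with results of these data known, so it is not independent evidence of a direction.

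Transfected RNA can raise interferon-stimulated genes, and these moved with the NF-κB genes. All 30 on the list passed the filter, and 25 were higher in siSNRNP40, against 50.5% of all genes, with a median of 0.38. Above 0.5 were 12 of them, against 5.24% of all genes, and none was below -0.5, against 5.06%. ISG20 was listed at 2.06 and 6.00 FPKM (1.55), the RNA sensor IFIH1 at 12.8 and 24.1 FPKM (0.91), ISG15 at 122 and 217 FPKM (0.83) and OASL at 6.12 and 10.4 FPKM (0.77). Summed over the list the level was 844 FPKM in siControl and 1209 FPKM in siSNRNP40. Their part in the result for the NF-κB genes was not tested, and a response to the siRNA sequences cannot be told apart from one to the loss of SNRNP40 with values pooled over 2 siRNAs.

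**Figure D4:**
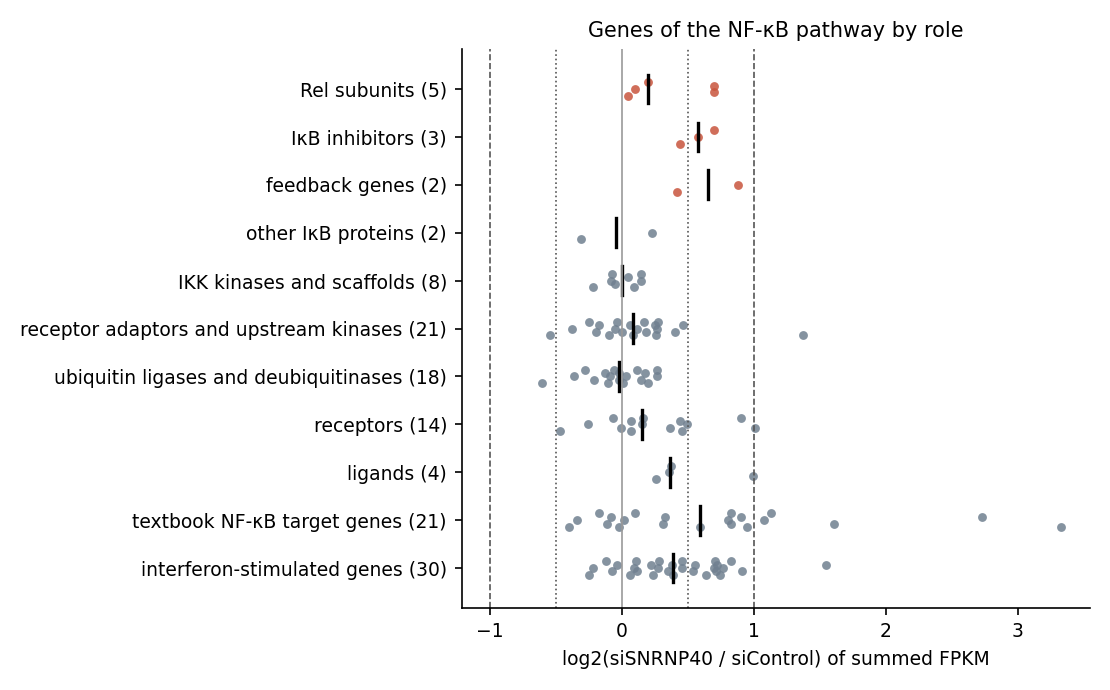
log2 of siSNRNP40 over siControl for each gene past the filter, by role in the pathway, with the number of genes in parentheses, a black bar at the median of each list, dotted lines at 0.5 and -0.5 and dashed lines at 1 and -1. The medians are 0.20 for Rel subunits, 0.58 for IκB inhibitors, 0.65 for feedback genes and 0.59 for textbook targets, against 0.00 for IKK kinases and scaffolds and -0.02 for ubiquitin ligases and deubiquitinases.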

How the data were processed

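RNA-seq of 4 libraries (2 siControl, 2 siSNRNP40, grouped by the sample labels) was examined as the authors' table of transcripts. Per the labels and the study's methods, the authors removed ribosomal RNA (Ribo-Zero Gold), built ScriptSeq v2 libraries, trimmed reads with cutadapt 1.2.1, mapped them to hg19 with TopHat2 2.0.8, assembled transcripts with Cufflinks and ran Cuffdiff 2.0.2 on the conditions. Values are FPKM, deposited after normalization for mapped fragments and length, with both libraries of a condition pooled. The table also holds the authors' log2 fold changes, test statistics, p-values and q-values, which were not used. All per-condition columns were used.

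FPKM was summed per gene symbol with Python 3.11.15, numpy 2.4.6 and pandas 2.3.3. No test was run here, since the values used are 1 per condition. A difference was counted past 0.5 or past 1 on the log2 scale. Symbols with several loci, such as TNF, were summed over them. The summing step and the count past 1 were tested on simulated data, with known changes set beyond that limit. The filter and the limit of 0.5 were not part of that test. Gene positions are from GENCODE release 44 on GRCh37, and promoter windows from RefSeq on GRCh38.p14. The κB consensus was searched without mismatches.

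The genes and the pathway lists were chosen with earlier results of these data known. Named were all 10 NF-κB genes, SNRNP40, transcripts with a mean of at least 1 FPKM or 10% of their gene, and from each list up to 4 genes with the greatest differences past 0.5 and at least 1 FPKM in both conditions, or otherwise the greatest and smallest. IL1A, CCL20, BCL3, PLAU and TNF fall outside that rule and were chosen after their values were seen. Alternatives changed the filter, pseudocount, scaling and summing.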

Additional observations from a re-analysis of the deposited data

How the results depend on the processing

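The number of NF-κB genes above 0.5 was 5 under every alternative but the filter of 5 FPKM (4 of 8 genes) and the omission of NFKBIB (4 of 9), none passed 1, and their median lay between 0.44 and 0.54. Of 78 values for single NF-κB genes under the filters, pseudocounts, scalings and choice of transcript tried, 77 were at or above 0. The exception was NFKB2 at -0.11 by its most expressed transcript, where NFKB1 gave 0.64 and RELA 0.26, so that the 5 genes above 0.5 then included NFKB1 in place of NFKB2. With a pseudocount of 1, TNFAIP3 gave 0.64, RELB 0.59 and SNRNP40 -2.54. The number of all genes past 0.5 in either direction (1270) became 4183 with no filter, 2848 at 0.1 FPKM, 501 at 5 FPKM, 706 with a pseudocount of 1 and 1908 by the most expressed transcript, and the number past 1 (181) became 1870, 857, 49, 69 and 454. The median of the textbook targets was 0.80 with no filter and at 0.1 FPKM, 0.32 at 5 FPKM and 0.32 by the most expressed transcript, and that of the interferon-stimulated genes was 0.27 at 5 FPKM. The cause of these differences was not tested, except that filters change which genes are counted. No paired analysis was possible because each condition has only 1 pooled value, and leaving out single libraries was not run for the same reason. Depth and the spread between libraries cannot be read from these values, and the differences were not set against an error.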
